A study of Homo sapiens with 16 samples.

Results

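Levels of 9 early response genes of the EGR, NR4A and IER families were examined in libraries labelled HCT116, a human colorectal carcinoma cell line of epithelial origin. The members are EGR1, EGR2, EGR3, NR4A1, NR4A2, NR4A3, IER2, IER3 and IER5. They were taken by symbol from the table of read counts, where each had a single entry among 60676 genes. The study crossed an shRNA (control, shCTL, or directed against NELFE, shNELFE) with a treatment (DMSO as vehicle, EPZ-5676, HMBA, or EPZ-5676 and HMBA together). This gave 8 groups of 2 libraries, 16 in all, numbered 1 and 2 by the labels. By label, every group was the same cell line carrying an shRNA, so no group was labelled as free of a vector. No source used here gives the shRNA sequences, the compounds' doses or the hours of exposure. Nothing in the labels says that the libraries came from separate cultures. A p-value here reflects only how far these libraries depart from the fitted model, which may be technical variation. Where a group has a single library in a fit, that departure cannot be told apart from an effect that differs between groups.

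NELFE belongs to negative elongation factor and contacts RNA, and the complex holds RNA polymerase II in a pause just downstream of promoters. EPZ-5676, also called pinometostat, inhibits DOT1L, the methyltransferase of histone H3 lysine 79. HMBA, hexamethylene bisacetamide, is a differentiation inducer that frees P-TEFb, a kinase of transcription elongation, from the RNA and protein complex that inhibits it, and raises the level of HEXIM1, a part of that complex. Early response genes are transcribed within minutes of a growth or stress signal without new protein synthesis, and many hold paused polymerase before the signal arrives. EGR proteins are zinc finger factors that bind GC-rich DNA, and their transcripts are induced through serum response factor and its partners. NR4A proteins are orphan nuclear receptors induced by cyclic AMP, calcium and growth signals. The IER genes share the early response and not a protein family: IER2 and IER5 encode related nuclear proteins, and IER3 encodes an unrelated regulator of survival and ERK signalling.

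The libraries did not all resemble each other, and 9 are described at length. They are the 8 numbered 2 and the shNELFE EPZ-5676 and HMBA library numbered 1, so 5 received HMBA and 4 did not. Pairwise Pearson's r of log2 CPM (each count scaled to the library total) over all genes was 0.976 to 0.995 among them and 0.910 to 0.933 between them and the other 7. Total counts were 13428893 to 17867037 in the 9 and 19626522 to 21319666 in the other 7. A floor of 3 counts in a library came to 0.141 to 0.223 CPM, and floors and intervals here cover counting error only. In the 9, the targeted NELFE stood at 66.3 to 79.3 CPM with shCTL and at 12.4 to 21.2 with shNELFE, and HEXIM1 at 323 to 375 with HMBA and at 65.4 to 81.9 without. In the other 7, NELFE was 101 to 269 CPM in libraries labelled shCTL and 81.6 to 147 in those labelled shNELFE, and HEXIM1 was 42.9 to 73.9 whatever the label. Of the 9 colon epithelial markers, 7 averaged above 1 CPM in the 9 libraries, with summed levels of 4594 to 7757 CPM with HMBA and 4469 to 5984 without. Immune markers (5) summed to 0.514 to 1.10 CPM with HMBA and 0.172 to 0.336 without, none averaged above 1 CPM, and CD3E was at 0. Mesenchymal markers, 5 of 9 averaging above 1 CPM, summed to 64.3 to 107 CPM with HMBA and 35.2 to 67.6 without. Of 3 endothelial markers, 1 averaged above 1 CPM, and their sums were 9.17 to 13.4 CPM with HMBA and 1.72 to 2.89 without. Mitochondrial transcripts took 8.87% to 12.2% of counts with HMBA and 6.12% to 6.90% without. The immune and endothelial sums and the mitochondrial share did not overlap between libraries with and without HMBA, while the colon epithelial and mesenchymal sums did. The part of these values in the results was not tested.

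The sequence just before the transcript start is shown for 4 members that differed in the motifs it holds. It comes from RefSeq's promoters on GRCh38.p14, where 6 of the 9 members had an entry and EGR3, NR4A2 and IER3 had none. Each line runs 5′ to 3′ on the gene's own strand and ends at the base before the start, except for NR4A3, which ends where an annotated exon of the gene begins. Capitals mark the CArG box, the site of serum response factor, and TGACG on either strand (read as CGTCA where it lies on the other strand), the core of the CREB site. EGR1 is at chr5:138465229-138465478 on the plus strand, and EGR2, from the third of its 3 starts, at chr10:62816367-62816616 on the minus strand. NR4A3 is at chr9:99821635-99821854 on the plus strand and IER5 at chr1:181088450-181088699 on the plus strand.
EGR1: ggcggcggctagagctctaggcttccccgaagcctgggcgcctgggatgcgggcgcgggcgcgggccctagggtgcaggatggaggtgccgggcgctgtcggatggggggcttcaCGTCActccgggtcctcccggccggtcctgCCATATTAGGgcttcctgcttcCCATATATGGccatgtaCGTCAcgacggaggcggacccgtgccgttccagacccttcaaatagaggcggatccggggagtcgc
EGR2: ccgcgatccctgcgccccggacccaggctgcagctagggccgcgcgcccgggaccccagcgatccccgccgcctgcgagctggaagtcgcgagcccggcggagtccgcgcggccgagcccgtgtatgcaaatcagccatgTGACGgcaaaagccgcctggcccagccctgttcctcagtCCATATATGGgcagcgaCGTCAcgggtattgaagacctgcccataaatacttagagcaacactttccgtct
NR4A3: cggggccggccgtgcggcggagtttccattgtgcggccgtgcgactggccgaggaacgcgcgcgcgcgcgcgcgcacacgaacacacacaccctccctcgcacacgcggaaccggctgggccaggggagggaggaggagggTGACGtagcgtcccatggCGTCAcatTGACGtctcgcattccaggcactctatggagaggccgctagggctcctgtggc
IER5: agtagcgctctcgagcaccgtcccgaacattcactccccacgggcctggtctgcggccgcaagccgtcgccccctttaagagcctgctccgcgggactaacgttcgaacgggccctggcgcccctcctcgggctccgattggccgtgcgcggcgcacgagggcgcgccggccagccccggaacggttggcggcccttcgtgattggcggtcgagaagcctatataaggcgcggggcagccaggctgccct

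EGR1 had a pair of CArG boxes, at bases -105 to -96 and -83 to -74 from the start, and TGACG at -135 to -131 and -66 to -62. EGR2 had a CArG box at -71 to -62 and TGACG at -110 to -106 and -54 to -50. NR4A3 had no CArG box but held TGACG at -109 to -105, -91 to -87 and -83 to -79, with a further copy at -25 to -21 that lies outside the stretch printed. IER2 held TGACG at -140 to -136. None of the letters searched were found before the start of IER5, or before either start of NR4A1. In the 250 bases before the start, the CArG box was found in 2 of these 6 genes and in 1.16% of all 35116 RefSeq entries. TGACG was found in 4 of the 6 genes and in 21.2% of entries. Counted by entry, since EGR2 has 3 starts and NR4A1 a pair, these were 2 and 4 of 9 member entries. The NF-kB site, at -130 to -121 from the second start of EGR2, was in 1 gene and in 9.96% of entries. The full CRE (TGACGTCA, 1.65% of entries), both EGR sites (GCGGGGGCG, 4.72%, and GCGTGGGCG, 0.72%), the NBRE bound by NR4A proteins (AAAGGTCA, 1.05%), the AP-1 site (TGANTCA, 6.57%), TATAAA (10.7%) and the heat shock element (0.441%) were in none of the 6. Both strands were searched, and the full CRE contains TGACG. A match to letters is a description of the sequence and shows neither binding nor use.

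**Figure D1:**
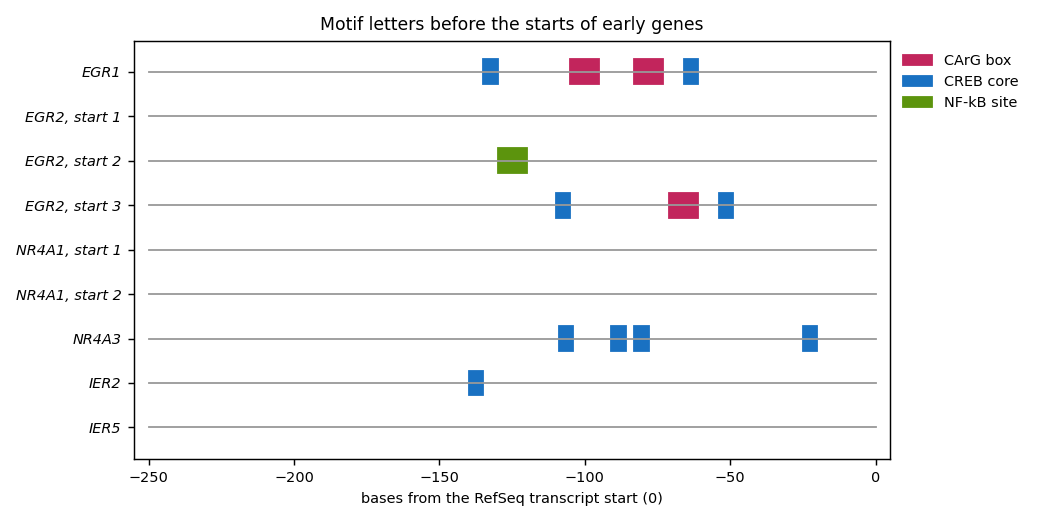
Motif letters in the 250 bases before each RefSeq start of the members, with the distance from the start in bases on the horizontal axis and 1 line per start. Boxes mark the CArG box, the CREB core TGACG and the NF-kB site; CArG boxes lie only before EGR1 and the third EGR2 start, and the lines of NR4A1 and IER5 are empty.

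HMBA gave the largest differences among the early genes. All 9 members passed the filter on low counts. In the 9 libraries 8 of them rose and IER3 fell, with EGR1 (7.81-fold), IER5 (4.89-fold) and EGR3 (3.33-fold) at the top. HMBA was also called for 63.0% of the 14912 genes tested (edgeR quasi-likelihood test, Benjamini-Hochberg adjusted p below 0.05; 4626 higher and 4766 lower), so 9 of 9 members called stands against a high background. The median log2 fold change was 1.23 over the members and 0.02 over all genes tested. In the 8 libraries numbered 2 all 9 members were called as well, in the same directions, beside 70.5% of 14808 genes. The ranges with and without HMBA did not overlap for 5 members (EGR1, EGR3, NR4A1, IER2 and IER5), all higher, beside 50.1% of genes in either direction and 23.3% higher. With library totals left unscaled, the median over all genes moved to -0.24 and calls split into 2785 higher and 6448 lower, with 7 members higher and 1 lower. With the other 7 libraries added and no replicate block, edgeR called 0 of 9 members and 0 of 15853 genes for HMBA. In edgeR, 4 members and 1641 genes had an unadjusted p below 0.05. In that fit without a replicate block the log2 fold change was 2.99 for EGR1, but it moved by over 1.5 times to 0.07 for EGR3, 0.88 for IER2, 1.36 for IER5 and -0.06 for IER3.

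EGR1, at chromosome 5, 138465490 to 138469315 on the plus strand of hg38, has 2 exons and is the family's best known member, a factor of growth and stress responses. Without HMBA its level was 47.2 CPM in shCTL DMSO, 24.9 in shNELFE DMSO, 30.9 in shCTL EPZ-5676 and 30.1 in shNELFE EPZ-5676. With HMBA it was 272 CPM in shCTL, 204 in shNELFE, 371 in shCTL with EPZ-5676, and 187 and 219 in the shNELFE libraries with EPZ-5676. Every library with HMBA was thus far above every library without it, and the 2 shCTL libraries were the highest. The means were 251 ± 74.3 CPM (SD, n = 5) with HMBA and 33.2 ± 9.65 (SD, n = 4) without. The log2 fold change was 2.97 (SE 0.16, adjusted p = 8.37e-08). Between libraries numbered 2 that differed only in HMBA, the ratio was lowest in shCTL against DMSO at 5.76 (95% exact binomial interval 5.32 to 6.24). It was highest in shCTL with EPZ-5676 in both, at 12.0 (10.9 to 13.2).

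EGR2, on chromosome 10 from 62811996 to 62919900 on the minus strand, encodes a factor known for myelination and for T cell tolerance. It was the least abundant member, with 7 to 30 counts a library. Its level was 0.583 CPM in shCTL DMSO, 0.516 in shNELFE DMSO, 0.738 in shCTL EPZ-5676 and 0.436 in shNELFE EPZ-5676. It was 1.84 CPM in shCTL HMBA, 1.21 in shNELFE HMBA, 1.93 in shCTL with both compounds, and 0.546 and 0.877 in shNELFE with both. The ranges overlapped, because the lower shNELFE library with both compounds fell among those without HMBA. EGR2 rose 2.34-fold with HMBA (log2 1.23, SE 0.31, adjusted p = 0.00524). In matched shNELFE pairs the HMBA ratio was 2.34 (95% interval 0.960 to 6.07), and 2.01 (0.731 to 6.03) with EPZ-5676 in both. Both intervals include 1. In shCTL the ratios were 3.16 (1.43 to 7.70) and, with EPZ-5676 in both, 2.61 (1.27 to 5.78).

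EGR3, on chromosome 8 from 22687659 to 22693302 on the minus strand, encodes a close relative of EGR1 with many of the same targets. It was at 1.62 CPM in shCTL DMSO, 1.32 in shNELFE DMSO, 0.805 in shCTL EPZ-5676 and 1.62 in shNELFE EPZ-5676. It was at 5.24 CPM in shCTL HMBA, 5.07 in shNELFE HMBA, 3.67 in shCTL with both compounds, and 2.80 and 5.11 in shNELFE with both. The groups did not overlap, although the pair of shNELFE libraries with both compounds differed by a ratio of 0.547 (replicate 1 to replicate 2), the widest gap among members. EGR3 rose 3.33-fold (log2 1.74, SE 0.25, adjusted p = 0.000122). With all 16 libraries its log2 fold change was 0.07 (adjusted p = 0.992), and 0.85 with the replicate number as a block (adjusted p = 0.685). A gene on the other strand overlaps EGR3 and had at most 2 counts in any of the 9 libraries. The genes that overlap IER2, IER3 and NR4A1 on the other strand had at most 4.

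**Figure D2:**
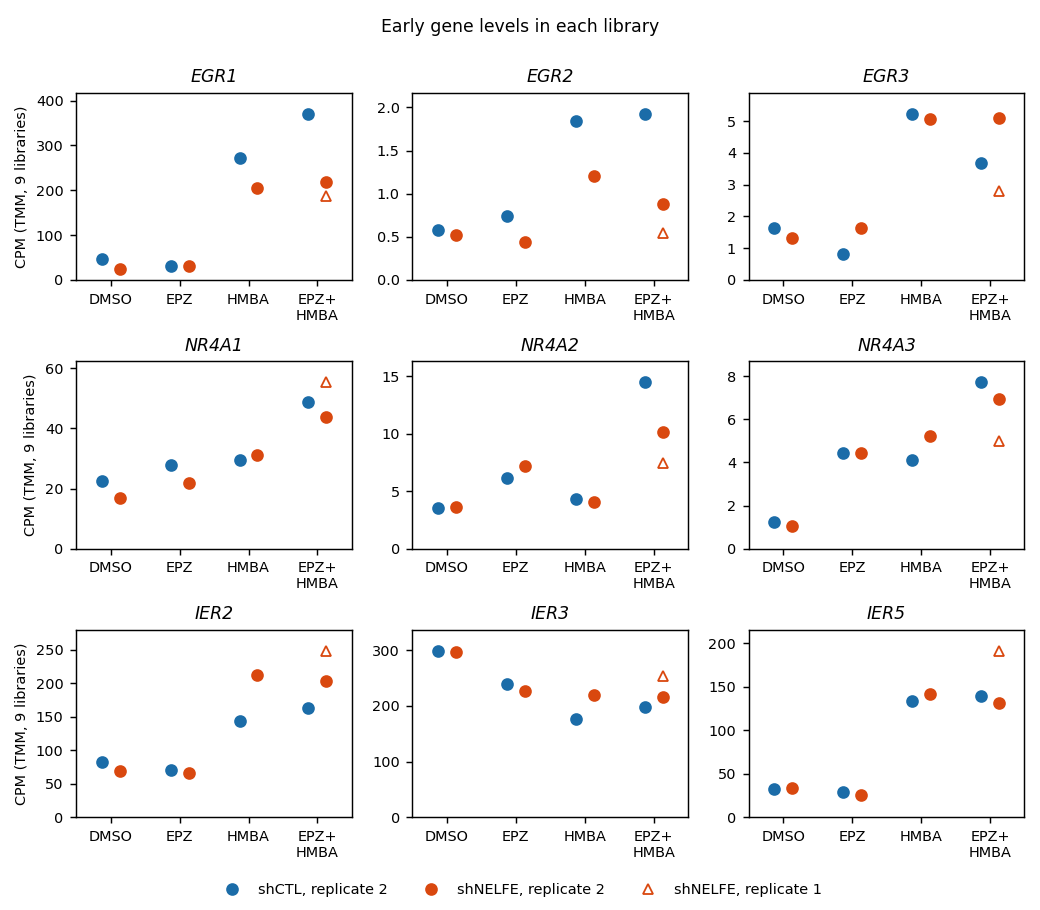
Level of each member in CPM (TMM-scaled over the 9 libraries, linear axes from 0) by treatment, 1 point per library, with shCTL in blue, shNELFE in red and the shNELFE library numbered 1 as an open triangle. EGR1, EGR3, IER2 and IER5 stand higher in every library with HMBA, the NR4A genes are also higher with EPZ-5676 in each matched pair, and IER3 is highest with DMSO.

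IER5, on chromosome 1 from 181088712 to 181092899 on the plus strand, is a single-exon gene whose protein activates heat shock factor 1. Its levels were 32.5 CPM in shCTL DMSO, 33.5 in shNELFE DMSO, 28.5 in shCTL EPZ-5676 and 26.1 in shNELFE EPZ-5676. They were 133 CPM in shCTL HMBA, 141 in shNELFE HMBA, 139 in shCTL with both compounds, and 191 and 131 in shNELFE with both. The libraries formed a low and a high set with nothing between, at means of 30.1 ± 3.42 CPM (SD, n = 4) and 147 ± 24.8 (SD, n = 5). IER5 rose 4.89-fold (log2 2.29, SE 0.14, adjusted p = 2.43e-07). Its ratio in the 4 matched pairs was the most even of all members, from 4.09 to 5.01.

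IER2, on chromosome 19 from 13150415 to 13154908 on the plus strand, encodes a small nuclear protein linked to cell motility. It was at 83.0 CPM in shCTL DMSO, 69.5 in shNELFE DMSO, 70.4 in shCTL EPZ-5676 and 65.3 in shNELFE EPZ-5676. It was at 144 CPM in shCTL HMBA, 212 in shNELFE HMBA, 163 in shCTL with both compounds, and 248 and 203 in shNELFE with both. The shNELFE libraries were the highest with HMBA and not without it, and arms with and without HMBA did not overlap. IER2 rose 2.63-fold (log2 1.39, SE 0.15, adjusted p = 1.59e-05).

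IER3 went the other way. The gene, on chromosome 6 from 30743199 to 30744554 on the minus strand, encodes a stress-induced protein also called IEX-1. It was at 299 CPM in shCTL DMSO, 297 in shNELFE DMSO, 240 in shCTL EPZ-5676 and 227 in shNELFE EPZ-5676. It was at 177 CPM in shCTL HMBA, 220 in shNELFE HMBA, 198 in shCTL with both compounds, and 254 and 216 in shNELFE with both. Both DMSO libraries were the highest and shCTL HMBA the lowest, but the arms overlapped at 227 to 254 CPM. IER3 fell by 0.32 on the log2 scale with HMBA (SE 0.12, adjusted p = 0.0422), with means of 213 ± 28.6 CPM (SD, n = 5) with it and 266 ± 37.2 (SD, n = 4) without. All 4 matched pairs were lower with HMBA, at ratios from 0.593 to 0.952. The size and the call moved with the scaling: RLE scaling gave log2 -0.29 (adjusted p = 0.0547) and unscaled totals -0.58 (adjusted p = 0.000528). Leaving out 1 library, the call held only without shNELFE EPZ-5676 replicate 2 (0.0109) or shNELFE EPZ-5676 and HMBA replicate 1 (0.00173), while leaving out any 1 of the other 7 libraries gave adjusted p = 0.0593 to 0.235. The highest of these came without shCTL HMBA replicate 2, where the log2 fold change was -0.19.

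The NR4A genes rose 1.43-fold to 2.17-fold with HMBA, and were also higher in every matched pair with EPZ-5676. NR4A1, also called Nur77, lies on chromosome 12 from 52022832 to 52059507 on the plus strand and is the most abundant of the 3. It was at 22.5 CPM in shCTL DMSO, 16.7 in shNELFE DMSO, 27.9 in shCTL EPZ-5676 and 21.9 in shNELFE EPZ-5676. It was at 29.5 CPM in shCTL HMBA, 31.1 in shNELFE HMBA, 48.9 in shCTL with both compounds, and 55.4 and 43.7 in shNELFE with both. The 3 libraries with both compounds were the highest, and the arms with and without HMBA did not overlap, by a narrow margin. NR4A1 rose 1.81-fold with HMBA (log2 0.86, SE 0.13, adjusted p = 0.000218).

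NR4A2, or Nurr1, known for its role in dopaminergic neurons, lies on chromosome 2 from 156324432 to 156342348 on the minus strand. It was at 3.50 CPM in shCTL DMSO, 3.61 in shNELFE DMSO, 4.28 in shCTL HMBA and 4.02 in shNELFE HMBA. With EPZ-5676 it was at 6.11 CPM in shCTL and 7.22 in shNELFE, and with both compounds at 14.5 in shCTL and at 7.50 and 10.2 in shNELFE. Every library with EPZ-5676 was above every library without it, at 9.12 ± 3.39 CPM (SD, n = 5) against 3.85 ± 0.364 (SD, n = 4). It was the only member whose arms with and without EPZ-5676 did not overlap, beside 1.21% of all genes. For HMBA the arms overlapped, and NR4A2 rose 1.43-fold (log2 0.52, SE 0.20, adjusted p = 0.0375). That call held without shNELFE DMSO replicate 2 (0.0309), shCTL HMBA replicate 2 (0.0391) or shNELFE EPZ-5676 and HMBA replicate 1 (0.00404). Leaving out any 1 of the other 6 libraries gave adjusted p = 0.0582 to 0.204, and unscaled totals gave log2 0.25 (adjusted p = 0.342). The log2 fold change was 0.320 without shCTL EPZ-5676 and HMBA replicate 2 (adjusted p = 0.124) and 0.325 without shCTL EPZ-5676 replicate 2 (0.204). With all pairwise products in the model it was 0.495 (adjusted p = 0.0681). In matched pairs without EPZ-5676 the HMBA ratio was 1.22 (95% interval 0.830 to 1.81) in shCTL and 1.11 (0.753 to 1.64) in shNELFE. Both intervals include 1. With EPZ-5676 in both libraries the ratios were 2.38 (1.86 to 3.07) in shCTL and 1.42 (1.10 to 1.83) in shNELFE.

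NR4A3, or NOR1, lies on chromosome 9 from 99821855 to 99866891 on the plus strand. It was at 1.23 CPM in shCTL DMSO and 1.03 in shNELFE DMSO, from 19 and 18 counts. With EPZ-5676 it was at 4.43 CPM in shCTL and 4.42 in shNELFE, with HMBA at 4.13 and 5.23, and with both at 7.72 in shCTL and 4.98 and 6.94 in shNELFE. Only the DMSO libraries stood low, and those with a single compound lay close together. NR4A3 rose 2.17-fold with HMBA (log2 1.12, SE 0.28, adjusted p = 0.00462).

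**Figure D3:**
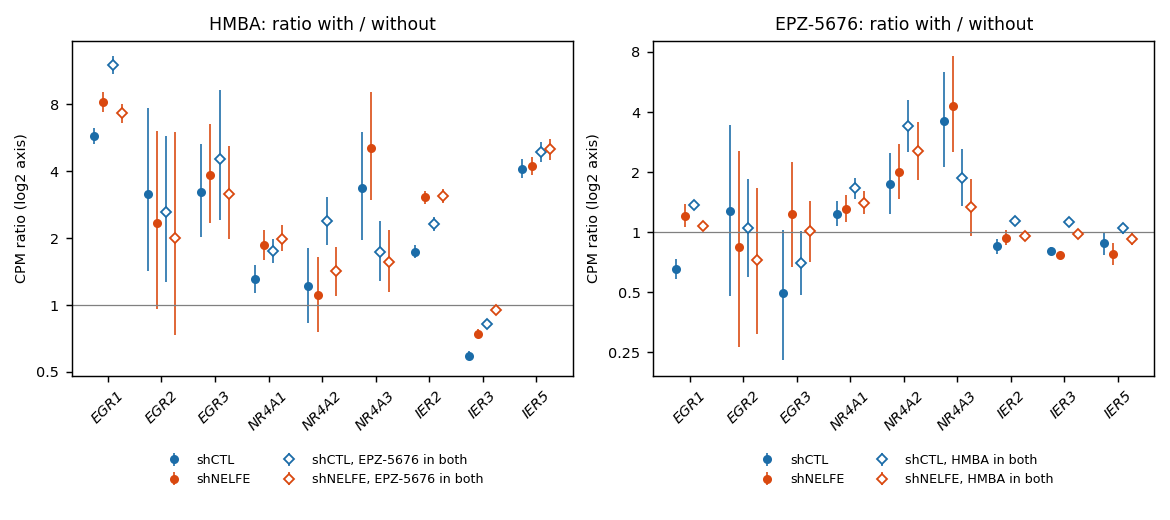
CPM ratio of each member between libraries numbered 2 that differ only in HMBA (left) or only in EPZ-5676 (right), on a log2 axis, with 4 pairs per member and bars for the 95% exact binomial interval of counting error. With HMBA all 4 ratios lie above 1 for every member but IER3, where all 4 lie below. The HMBA bars cross 1 for EGR2 in the shNELFE pairs and for NR4A2 in the pairs without EPZ-5676. With EPZ-5676 only the 3 NR4A genes have all 4 ratios above 1. The NR4A3 bar crosses 1 there in shNELFE with HMBA in both.

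With EPZ-5676 the NR4A genes were higher and the EGR and IER genes showed no common direction. In the 9 libraries 0 of 9 members were called by edgeR, where 0.201% of genes were (30 of 14912), and 3 members had an unadjusted p below 0.05. Those were NR4A2 (log2 1.18, SE 0.20, adjusted p = 0.0527), NR4A1 (log2 0.56, SE 0.13, adjusted p = 0.124) and NR4A3 (log2 1.05, SE 0.28, adjusted p = 0.170). The same 3 were called on these libraries by DESeq2 (adjusted p = 9.31e-05 for NR4A2, 0.0120 for NR4A1 and 0.0235 for NR4A3), while limma-voom called none of the members. How many genes DESeq2 called is given in the last section. Without shNELFE EPZ-5676 and HMBA replicate 1, which leaves the 8 libraries numbered 2, edgeR also called the 3 NR4A genes, beside 3.80% of genes. There NR4A2 had a log2 fold change of 1.26 (adjusted p = 0.00149), NR4A3 of 1.16 (adjusted p = 0.0144) and NR4A1 of 0.49 (adjusted p = 0.0130).

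Each NR4A gene was higher with EPZ-5676 in 4 of 4 matched pairs. The ratio ran from 1.24 to 1.66 for NR4A1, from 1.75 to 3.40 for NR4A2 and from 1.33 to 4.28 for NR4A3. The lowest NR4A3 ratio, in shNELFE with HMBA in both, had a 95% interval of 0.958 to 1.85, which includes 1. The other NR4A intervals lay above 1. How many of all genes were higher in 4 of 4 pairs was not counted. The EGR and IER genes had log2 fold changes between -0.38 (EGR3) and 0.04 (EGR1) in the 9 libraries, and none of the 6 was higher in all 4 pairs. The EGR1 ratio lay on both sides of 1, at 0.655 (95% interval 0.581 to 0.737) in shCTL without HMBA and 1.37 (1.31 to 1.42) in shCTL with it. In shNELFE it was above 1 in both pairs, at 1.21 (1.06 to 1.38) without HMBA and 1.07 (1.02 to 1.13) with it.

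**Figure D4:**
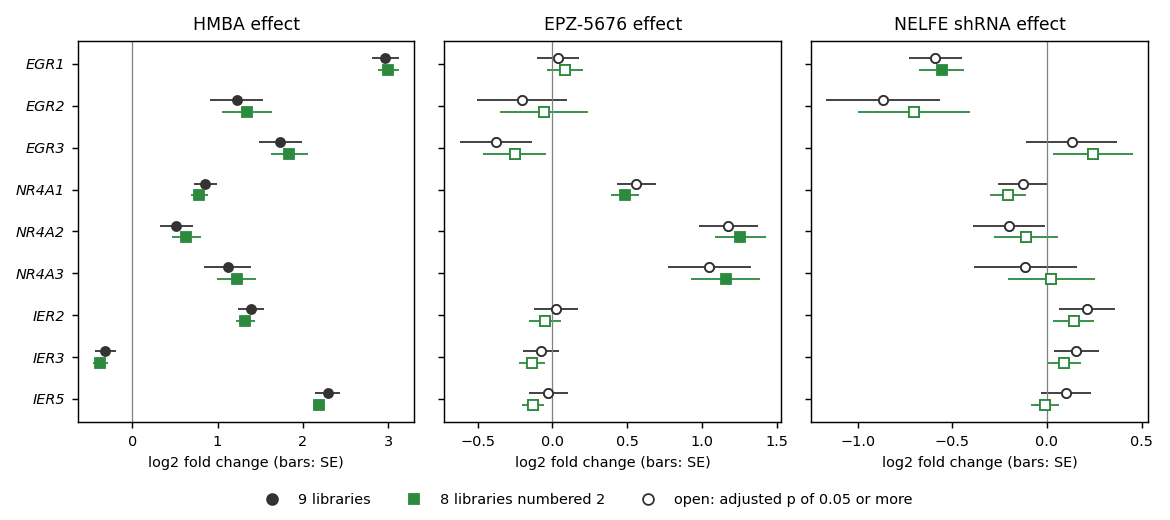
Log2 fold change of each member for HMBA, EPZ-5676 and the NELFE shRNA, with SE bars. Circles are the 9 libraries and squares the 8 numbered 2, which hold a single library per group. Filled symbols have an adjusted p below 0.05. All symbols are filled for HMBA, while for EPZ-5676 only the 3 NR4A genes and for the shRNA only EGR1 are filled, and only in the 8 libraries.

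Knockdown of NELFE was accompanied by lower EGR1 and EGR2 values that did not pass the test in the 9 libraries. There 0 of 9 members were called by edgeR, beside 2.37% of genes (353 of 14912), and EGR1 and EGR2 alone had an unadjusted p below 0.05. EGR1 had a log2 fold change of -0.59 (SE 0.14, adjusted p = 0.0574) and EGR2 of -0.87 (SE 0.30, adjusted p = 0.152). In the 8 libraries numbered 2, which hold a single library per group, EGR1 fell by 0.56 on the log2 scale. DESeq2 called 1 member on the 9 libraries, and edgeR called EGR1 without shCTL EPZ-5676 replicate 2 (log2 -0.74, adjusted p = 0.0302). Genes called by DESeq2, and their range when 1 library is left out, are given in the last section.

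EGR1 was lower with shNELFE in 4 of 4 matched pairs. The ratio was 0.527 (95% interval 0.467 to 0.595) with DMSO, 0.753 (0.715 to 0.792) with HMBA, 0.590 (0.565 to 0.617) with both compounds and 0.974 (0.855 to 1.11) with EPZ-5676. The last interval includes 1, so EGR1 differed beyond counting error in 3 of the 4 pairs. EGR2 was also lower in 4 of 4, at ratios from 0.454 to 0.885. Its interval left out 1 only with both compounds (0.212 to 0.914). The intervals with DMSO (0.311 to 2.52), EPZ-5676 (0.194 to 1.67) and HMBA (0.321 to 1.29) included 1. The other 7 members had log2 fold changes from -0.20 (NR4A2) to 0.21 (IER2), and no member's arms were free of overlap, beside 3.17% of genes.

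Whether an effect depended on another factor was tested with product terms, and none was called for a member. For the shRNA and HMBA, 2 genes were called (0.0134% of those tested). IER2 had the lowest p of the members (product log2 0.72, SE 0.20, edgeR adjusted p = 0.879, unadjusted 0.00514), and in the 8 libraries numbered 2 the product was 0.63 (adjusted p = 0.117). The 4 ratios behind it were 1.73 and 2.32 in the shCTL pairs and 3.05 and 3.11 in the shNELFE pairs. For EPZ-5676 and HMBA, edgeR called 0 of 14912 genes (0%), with 385 at an unadjusted p below 0.05, and DESeq2 called 1. NR4A3 had the lowest p of the members there (product log2 -1.46, SE 0.39, edgeR adjusted p = 1.00, unadjusted 0.00431): its ratio for HMBA was 3.36 and 5.07 without EPZ-5676, and 1.74 and 1.57 with it. For the shRNA and EPZ-5676, edgeR also called 0 genes (0%), with 114 at an unadjusted p below 0.05 and none of the members among them, and DESeq2 called 3.

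The replicate pair within the 9, the shNELFE libraries with both compounds, shows how far single libraries can differ. Ratios of replicate 1 to replicate 2 ran from 0.547 for EGR3 to 1.46 for IER5. The absolute log2 ratio was at or above the median of all genes (0.36) for EGR2 (0.68), EGR3 (0.87), NR4A2 (0.45), NR4A3 (0.48) and IER5 (0.54), and below it for the other 4. All other groups had a single library among the 9.

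Per kilobase of merged exons, which allows only a rough comparison between genes, IER3 was the most abundant member with and without HMBA. The merged length takes in every annotated transcript, 22 for NR4A1 and 1 each for EGR1 and IER5. The order given here thus depends on the annotation. The mean of IER3 was 196 CPM per kilobase without HMBA and 157 with it. Without HMBA it was followed by IER2 (23.5 CPM per kilobase), EGR1 (10.6), IER5 (7.20), NR4A1 (3.05), NR4A2 (1.29), NR4A3 (0.440), EGR3 (0.276) and EGR2 (0.154). Ranges of neighbours in this order overlapped for EGR1 and IER5, for NR4A3 and EGR3, and for EGR3 and EGR2, and not for the other 5 pairs. With HMBA, EGR1 (79.9 CPM per kilobase) stood above IER2 (63.1) in mean, with ranges of 59.6 to 118 and 46.8 to 80.6 that overlapped.

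Across the 9 libraries, the members differed in how alike their log2 CPM values were. EGR1, IER2 and IER5 had Pearson's r of 0.951 for EGR1 and IER5, 0.973 for IER2 and IER5 and 0.901 for EGR1 and IER2. EGR3 was as like EGR1 (0.907) as IER2 was. NR4A2 was most like NR4A3 among the members (0.764), and IER3 had a negative r with all others, from -0.80 with EGR2 to -0.45 with IER2. Among 11487 other genes, the one most like EGR1 was SUN1 (0.995), of the nuclear envelope. For IER2 they were VASN (0.997) and JUNB (0.996), itself an early response gene, and for IER5 they were B2M (0.996) and GTF2B (0.995). Such values were common: r was above 0.95 with 528 genes for EGR1, 363 for IER2 and 687 for IER5. They were rarer for the NR4A genes, with 11 for NR4A1, 1 for NR4A3 and 0 for NR4A2. The same held for EGR3 (72), EGR2 (17) and IER3 (0). The closest were TMSB4X (0.986) and ZNF778 (0.966) for NR4A1, FN1 (0.941) and ARHGAP39 (0.896) for NR4A2, and TAOK2 (0.984) and TLE1 (0.932) for NR4A3. EGR2 was most like PRMT2 (0.976) and GRK5 (0.973), EGR3 most like AHCYL2 (0.983) and THAP2 (0.977), and IER3 most like NPEPPS (0.918) and SLC38A9 (0.914). These are descriptions over 9 libraries that share their HMBA split and sequencing.

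Other early genes were mostly higher with HMBA. Of 33 other immediate early genes, 24 rose, 7 fell and 2 did not pass, so 31 of 33 were called beside 63.0% of all genes. Their median log2 fold change was 1.76, beside 0.02 over all genes tested. CCN2, a matricellular protein, went from 12.9 ± 0.428 CPM (SD, n = 4) to 644 ± 295 (SD, n = 5), a log2 fold change of 5.42 (SE 0.27). ARC, known as a synaptic early gene, went from 6.20 ± 0.555 CPM (SD, n = 4) to 217 ± 149 (SD, n = 5), a log2 fold change of 4.58 (SE 0.47). ARC was also the only gene of the list called for the product of shRNA and HMBA (log2 2.63, adjusted p = 0.00218).

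Proteins that act with or upstream of the members did not move one way. Of 8 family relatives and cofactors, EGR4, WT1 and RXRG did not pass the filter, 1 of the 5 tested rose and 4 fell (median log2 -0.77). NAB2, a corepressor that EGR1 induces and that in turn restrains it, fell by 2.03 on the log2 scale (SE 0.17), from 70.6 ± 26.1 CPM (SD, n = 4) to 15.7 ± 2.78 (SD, n = 5). IER5L, a relative of IER5, rose by 0.92 (SE 0.27), from 22.1 ± 2.14 CPM (SD, n = 4) to 47.8 ± 21.9 (SD, n = 5). Of 15 SRF, TCF and MAP kinase regulators, 6 rose and 6 fell (median log2 -0.06), with the largest falls in the SRF coactivator MRTFB (log2 -1.56) and the kinase RPS6KA5 (log2 -1.12). Of 13 CREB and cyclic AMP regulators, 4 rose and 6 fell (median log2 -0.22), led by falls of the factor ATF1 (log2 -1.71) and the CREB coactivator CRTC3 (log2 -1.49). The calls, 5 of 5, 12 of 15 and 10 of 13, stand beside 63.0% of all genes, so these counts are not read as a result about the lists.

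Calls for the other factors in these 4 lists are named here after their values were seen. For the shRNA 2 of the 33 early genes were called and none of the other lists, beside 2.37% of all genes. For EPZ-5676 1 of the 33 early genes and 1 of the 13 CREB and cyclic AMP regulators were called, beside 0.201%. With shNELFE, BTG2, an antiproliferative early gene, rose (log2 1.00, adjusted p = 0.00447) and so did the kinase PLK2 (log2 0.54, adjusted p = 0.0281). With EPZ-5676, PRKACB, a catalytic subunit of protein kinase A, fell by 1.14 on the log2 scale (adjusted p = 0.00205) and FOSL1, an AP-1 subunit, fell by 0.49 (adjusted p = 0.0408). In the lysate of a whole culture, fewer cells expressing a gene and less RNA per cell cannot be told apart, for these genes and for the members.

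The 7 libraries that stand apart give a different picture of the early genes, on CPM scaled over all 16 libraries. EGR1 lay at 0.328 to 11.6 CPM in them, below its lowest value in the 9, where it reached 361. IER3 was also lower in all 7, at 43.1 to 126 CPM beside 174 to 298. IER2 (47.2 to 130 CPM beside 63.7 to 240) and IER5 (35.6 to 69.6 beside 25.5 to 185) overlapped with the 9. With all 16 libraries and no term for the replicate number, edgeR called 0 of 9 members for the shRNA or EPZ-5676 as well. Of 15853 genes, 0 were called for either. Unadjusted p was below 0.05 for 0 members and 400 genes for the shRNA, and for 1 member and 90 genes for EPZ-5676. Alternative tools were fitted to the 9 only.

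**Figure D5:**
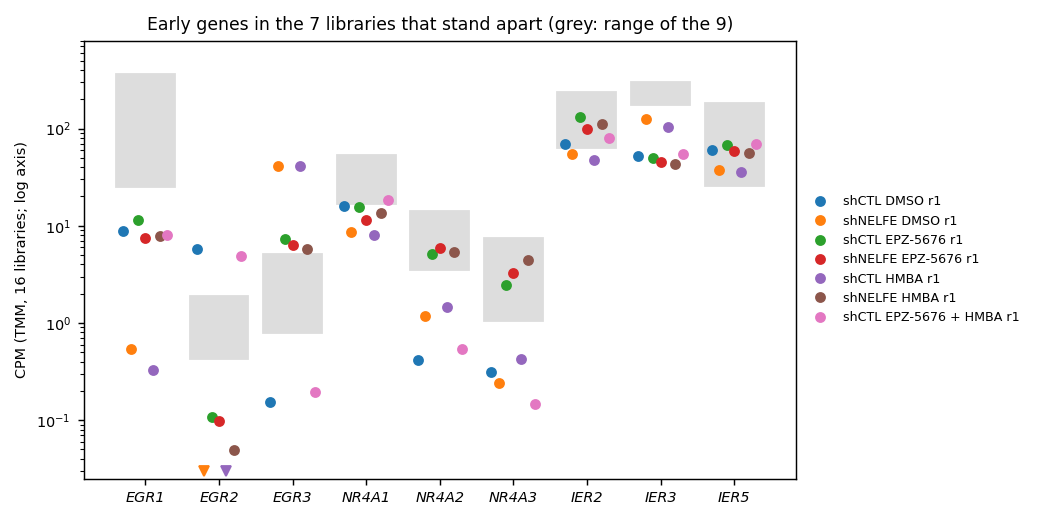
Level of each member in the 7 libraries that stand apart, in CPM scaled over all 16 libraries on a log axis, with grey boxes for the range of the 9 and triangles at the lower edge for a count of 0. EGR1 and IER3 lie below the range of the 9 in all 7, while EGR3 lies above it in 5 and EGR2 in 2.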

How the data were processed

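The authors deposited raw read counts per gene for all 16 libraries, made, per the labels' protocols, from poly(A)-selected RNA with a stranded kit. The submitters' processing notes name HTSeq 0.6.1p1, STAR 2.4.0b, edgeR and Cufflinks 2.1.1 and the hg38 build, without saying what each did. No source used here gives the annotation release or the strand setting of counting. Positions and exon lengths come from GENCODE v29.

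Samples were grouped by title. Counts of the 9 libraries were fitted with edgeR 4.0.16 in R 4.3.3 (TMM scaling, filterByExpr, quasi-likelihood F-test, Benjamini-Hochberg adjustment over all genes tested, threshold 0.05). The model was additive in the 3 factors (shRNA, EPZ-5676, HMBA), with 5 residual degrees of freedom because 7 of the 8 groups have 1 library, and product terms were added one at a time, with 4. A printed SE is the log2 fold change divided by the square root of F. Simulated counts, in which 200 genes were changed, were used to test the code. CPM are TMM-scaled over the 9 libraries unless stated. The pairwise r between libraries and the NELFE and HEXIM1 levels use TMM scaling over all 16 libraries. The floor of 3 counts uses unscaled library totals. Alternatives were RLE or no scaling, no filter, DESeq2 1.42.0, limma-voom 3.58.1, other sets of libraries, the replicate number as a block, all products together, and leaving out each library.

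The 9 members, the 9 libraries and the gene lists were chosen with earlier results of these data known. All members are named. From each list the 2 genes with the largest absolute HMBA change among those called with a mean of at least 2 CPM are named, and for likeness the 2 genes with the highest r (log2 CPM, prior count 2) per member. The result for 1 gene is not reported here.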

Additional observations from a re-analysis of the deposited data

Results flagged for a closer look

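In the 7 libraries outside the 9, 2 EGR genes stood above every one of the 9, on CPM scaled over all 16 libraries. EGR2 was 5.75 CPM in the library labelled shCTL DMSO replicate 1 and 4.88 in that labelled shCTL EPZ-5676 + HMBA replicate 1, where the highest of the 9 was 1.88. In the other 5 it was 0 to 0.108 CPM. EGR3 was 41.1 CPM in the library labelled shNELFE DMSO replicate 1 and 41.6 in that labelled shCTL HMBA replicate 1, beside a highest value of 5.15 in the 9. It was 7.38 CPM in that labelled shCTL EPZ-5676 replicate 1, 6.36 in shNELFE EPZ-5676 replicate 1 and 5.72 in shNELFE HMBA replicate 1, and 0.155 and 0.195 in the pair with high EGR2. The libraries with the highest EGR3 differ in shRNA and treatment by label, as do the 3 with intermediate values. In the same 7 libraries VIM ran from 0.108 to 1924 CPM and CDH1 from 0.0977 to 1602, beside 2.83 to 8.20 and 78.9 to 204 in the 9. The part of these differences in EGR2 and EGR3 was not tested.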

How the results depend on the processing

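Leaving out any 1 of the 9 libraries gave 7 to 9 members called for HMBA (8035 to 10443 genes), 0 to 1 for the shRNA (66 to 1940 genes) and 0 to 3 for EPZ-5676 (1 to 563 genes). For the products it gave 0 members, with 0 to 36 genes for shRNA by HMBA, 0 to 5 for EPZ-5676 by HMBA and 0 for shRNA by EPZ-5676. The upper end of each range above 0 came without shNELFE EPZ-5676 and HMBA replicate 1, whose loss leaves the 8 libraries numbered 2. The member count for the shRNA also reached its upper end without shCTL EPZ-5676 replicate 2. The lowest gene counts came without shCTL HMBA replicate 2 for the shRNA and without shNELFE HMBA replicate 2 for EPZ-5676. Against 353 genes for the shRNA and 30 for EPZ-5676, 8 and all 9 of these fits, respectively, moved the count by over 1.5 times.

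Without the filter, 1 member and 767 genes were called for the shRNA, 3 members and 248 genes for EPZ-5676, and 75, 5 and 4 genes for shRNA by HMBA, EPZ-5676 by HMBA and shRNA by EPZ-5676. DESeq2 called 1 member and 889 genes, 3 members and 231 genes, and 17, 1 and 3 genes. The 8 libraries numbered 2 gave 1 member and 1940 genes, 3 members and 563 genes, and 36 and 5 genes for the products with HMBA. With all products together, 2 genes were called for the shRNA and 0 for EPZ-5676.

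With the libraries that stand apart, edgeR called 0 members and 0 genes for HMBA, the shRNA and EPZ-5676 in all 16 libraries without a block, in all 16 with the replicate number as a block, and in the 8 numbered 1. Unadjusted p was below 0.05 for 4, 4 and 0 members for HMBA (1641, 2874 and 3 genes), for 0, 0 and 0 for the shRNA (400, 443 and 306 genes) and for 1, 3 and 0 for EPZ-5676 (90, 158 and 71 genes). The alternative tools were fitted to the 9 only. For shRNA by HMBA these fits called 0 genes, and with the replicate block 1 gene was called for EPZ-5676 by HMBA. No pairing of libraries by number is stated in the labels. The difference between numbers was correlated between groups (28 pairs of groups), with r from 0.08 to 0.96, and in 25 pairs above 0.1. All libraries that stand apart are numbered 1, so most of these differences set such a library against a library of the 9. A shared departure from the 9 would raise r with or without pairing. These r values therefore cannot show whether libraries were paired by number.

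Directions turned for HMBA in IER3 (0.182 with the block, 0.761 in number 1) and EGR3 (-0.951 in number 1). For the shRNA they turned in NR4A3 (0.0245) and IER5 (-0.00991) in the 8 numbered 2, in NR4A2 (0.369) and NR4A3 (0.468) in all 16, and in NR4A1 (0.00694), NR4A2 (0.616) and NR4A3 (0.788) with the block. In number 1 they turned in EGR1 (0.961), EGR3 (-0.0116), NR4A1 (0.265), NR4A2 (1.41) and NR4A3 (1.96). For EPZ-5676 they turned in IER2 (-0.0514 in the 8 numbered 2, -0.0128 with all products), IER5 (0.337 in all 16, 0.321 with the block, 0.922 in number 1) and EGR2 (1.15 in number 1). The EPZ-5676 by HMBA product of NR4A2 turned to -0.337, -1.0 and -3.27 in all 16, with the block and in number 1. None of the turned values passed the threshold. Leaving out 1 library also turned near-zero log2 values: for the shRNA, NR4A2 ran from -0.364 to 0.104, NR4A3 from -0.376 to 0.0419 and IER5 from -0.00991 to 0.180. For EPZ-5676, EGR1 ran from -0.0741 to 0.193, IER2 from -0.0970 to 0.158, IER3 from -0.177 to 0.0235 and IER5 from -0.128 to 0.0555. The cause was not tested.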
